A study of Mus musculus with 6 samples.

Results

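The angiopoietin-Tie and FOXO axis was followed through 6 genes picked by name from the 49315 genes of the count table: the receptors Tek (Tie2) and Tie1, the secreted ligand Angpt2, the receptor phosphatase Ptprb, and the transcription factors Foxo1 and Foxo3. All 6 passed the low-count filter. Ribosome-depleted RNA was sequenced from bEND.3 cells, a mouse brain endothelial line immortalised with the polyoma middle T antigen. The comparison was between 4 samples given a GapmeR against the long noncoding RNA Gm39822 and 2 samples given a negative control GapmeR, each at 100 nM with Lipofectamine 2000. GapmeRs are antisense oligonucleotides through which RNase H cuts the RNA they pair with, and 1 GapmeR sequence was used against Gm39822. The labels do not tie the samples to separate cultures, so p-values here measure the spread between these samples, which may be technical.

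Counts of Gm39822 were 2, 1, 4 and 2 with its GapmeR and 61 and 56 in the controls (log2 fold change −4.82, SE 0.41, edgeR adjusted p = 8.8e-08). Library totals ranged from 30264086 to 37117934 counts with the GapmeR, against 29261988 and 34266811 in the control pair. A count of 3 was worth 0.0771 to 0.110 CPM, the usual scaling of counts to the library total, here adjusted by TMM, and this limit covers counting error only. Of 18234 genes tested, 45.3% had an adjusted p under 0.05, 25.4% higher and 20.0% lower in the GapmeR samples. With library totals alone in place of TMM factors, which correct for composition, the higher share of the calls was 74.1% against 55.9%, and the median gene moved up by 0.15 on the log2 scale.

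Tie2 is the receptor tyrosine kinase that angiopoietins bind on endothelial cells. Angiopoietin-1, mostly made by perivascular cells, activates it and keeps vessels quiescent through PI3K and AKT, which phosphorylates FOXO factors and holds them out of the nucleus. Angiopoietin-2 is made by endothelial cells, stored in Weibel-Palade bodies, and acts on Tie2 as a weak agonist or an antagonist depending on context. Tie1 has no well established ligand of its own and modifies Tie2 signalling. Ptprb encodes VE-PTP, which removes phosphate from Tie2. Angpt2 is a well known FOXO1 target gene.

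Angpt2 fell to 27.4% of its control level, while Tek and Tie1 differed by less than 1.5-fold. Ptprb and Foxo3 fell by smaller amounts and Foxo1 rose. The receptors did not pass the test. In all, 4 of the 6 genes were called, 1 higher and 3 lower, beside 45.3% of all genes tested (25.4% higher and 20.0% lower). Library totals alone gave 3 calls, 2 higher (Tie1 and Foxo1) and 1 lower (Angpt2), so the larger side changed. The median log2 fold change of the 6 was −0.22, beside 0.03 over all genes tested. Each of the 6 had groups that did not overlap in TMM-normalized CPM, which was also so for 59.2% of all genes tested.

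**Figure D1:**
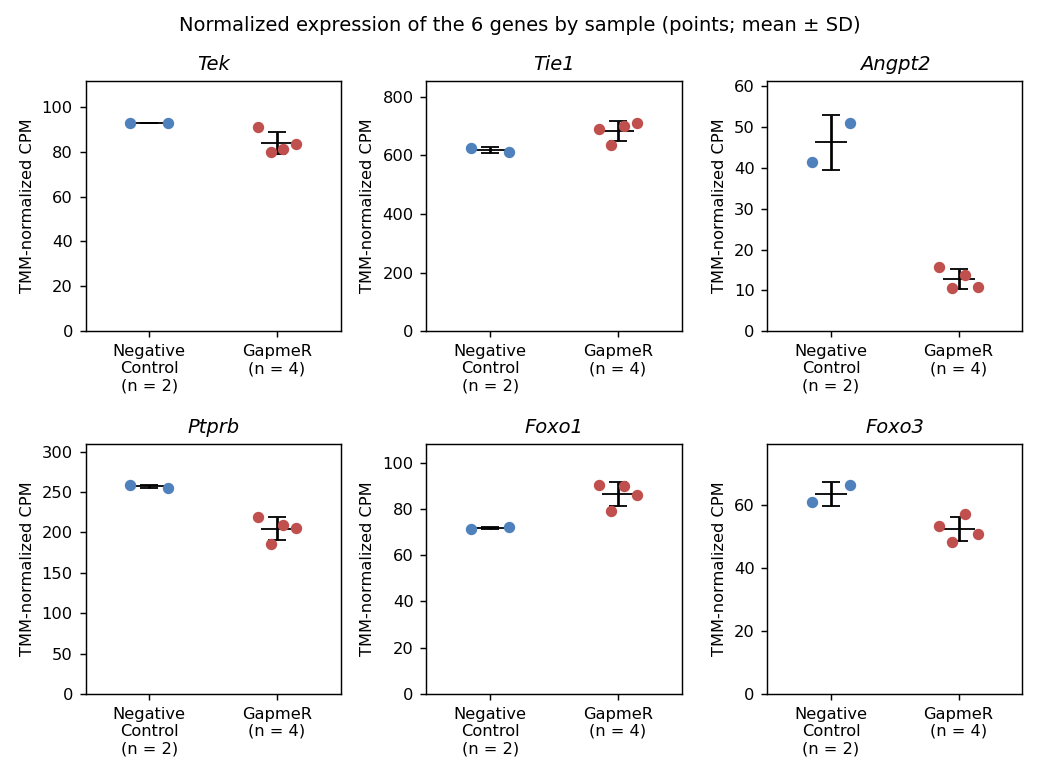
TMM-normalized CPM (linear axes from 0) of Tek, Tie1, Angpt2, Ptprb, Foxo1 and Foxo3 in 2 Negative Control and 4 GapmeR samples, one point per sample, with the mean and SD. Angpt2 sits at 10.7 to 15.7 CPM in the GapmeR samples and at 41.5 and 51.1 CPM in the controls, and for the other 5 genes the groups are separated by gaps that are small relative to their level.

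Angpt2 (ENSMUSG00000031465, chromosome 8, 18690263 to 18741562 in GRCm38.p6) had 532, 415, 424 and 348 counts after knockdown, in sample order, against 1137 and 1631 counts in controls 1 and 2. These were 15.7, 10.7, 13.7 and 10.8 CPM against 41.5 and 51.1 CPM. The highest GapmeR sample lay well under the lower control, and the controls differed by more than the GapmeR samples in CPM but by less in fold. The knockdown mean was 12.7 ± 2.44 CPM (SD, n = 4) and the control mean 46.3 ± 6.79 CPM (SD, n = 2). The log2 fold change was −1.87 (SE 0.15, 95% interval −2.20 to −1.53, edgeR adjusted p = 3.8e-06). Of all genes tested, 0.817% had a lower log2 fold change. Across the alternatives it ranged from −1.99 to −1.69, and each kept the call.

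Angpt2 lies inside Mcph1, a gene of the opposite strand, and in GENCODE vM39 on GRCm39 their exons share 3387 bases, 70.68% of the Angpt2 exon length. The strand setting of the counting is not given in the sources used here, so reads of the shared bases cannot be told apart. Mcph1, which encodes microcephalin, had 328, 330, 307 and 327 counts after knockdown against 308 and 312 in the controls. Its log2 fold change was −0.14 (SE 0.12, edgeR adjusted p = 0.351). The other ligands were close to absent: Angpt1 had 0, 0, 3 and 0 counts after knockdown against 1 and 0 in the controls, and Angpt4 had 1, 0, 5 and 0 against 0 and 2. Neither passed the low-count filter, and no difference was detectable at this depth.

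Tek (ENSMUSG00000006386, chromosome 4, 94739086 to 94874976) had 90.8, 79.7, 81.2 and 83.4 CPM after knockdown against 92.9 and 92.8 CPM in the controls. GapmeR sample 1 came within a few percent of the controls, and the others lay lower. The log2 fold change was −0.15 (SE 0.07, 95% interval −0.30 to 0.01, edgeR adjusted p = 0.109), so a fall of that size was not separated from none. Scaled by library totals alone, Tek was at −0.0008 (adjusted p = 0.993).

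Tie1 (ENSMUSG00000033191, chromosome 4, 118471191 to 118489849) had 690, 634, 700 and 711 CPM after knockdown against 624 and 611 CPM in the controls. GapmeR sample 2 was close to the controls and the other three were higher. The log2 fold change was 0.15 (SE 0.08, 95% interval −0.02 to 0.31, edgeR adjusted p = 0.131). The call turned on the settings: Tie1 passed without GapmeR sample 2 (0.18, adjusted p = 0.0169), with library totals alone (0.29, adjusted p = 0.00377) and with at least 10 counts required in every sample (0.19, adjusted p = 0.0479).

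The starts of the receptor genes are shown because both receptors are endothelial and ETS factors, whose core motif is GGAA, are known regulators of endothelial genes. The lines hold the 300 bases from 250 before to 50 after a start in the RefSeq promoter table (GRCm38.p6), with GGAA and its reverse complement TTCC in capitals. Tek is at chr4:94739039-94739338 on the plus strand and Tie1 at chr4:118489800-118490099 on the minus strand. The only Tek window in the table belongs to a start that lies downstream of the first base of the gene as given for Tek, while the Tie1 window sits at its gene's first base.
Tek: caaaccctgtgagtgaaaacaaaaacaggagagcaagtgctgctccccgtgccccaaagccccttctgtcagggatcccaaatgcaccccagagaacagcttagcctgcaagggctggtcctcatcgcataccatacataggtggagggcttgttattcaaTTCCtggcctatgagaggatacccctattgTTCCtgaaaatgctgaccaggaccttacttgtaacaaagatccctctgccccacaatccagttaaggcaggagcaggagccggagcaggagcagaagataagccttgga
Tie1: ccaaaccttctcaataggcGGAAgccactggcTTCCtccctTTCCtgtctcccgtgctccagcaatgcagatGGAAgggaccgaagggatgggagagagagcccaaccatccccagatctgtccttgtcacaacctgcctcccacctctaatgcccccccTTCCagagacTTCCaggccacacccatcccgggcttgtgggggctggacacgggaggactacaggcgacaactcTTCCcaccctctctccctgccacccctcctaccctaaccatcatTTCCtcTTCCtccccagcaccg
Tek held 2 matches and Tie1 held 9, where the median over 32851 mouse promoters of this length was 3 and 96.0% held at least 1. A match describes letters, not a bound site. The Tek window had 3 CpG and the Tie1 window 7, beside a median of 7.

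Ptprb (ENSMUSG00000020154, chromosome 10, 116275502 to 116389538) had 219, 186, 209 and 205 CPM after knockdown against 258 and 256 CPM in the controls. All GapmeR samples were below both controls, which were almost equal. The knockdown mean was 205 ± 13.9 CPM (SD, n = 4) and the control mean 257 ± 1.85 CPM (SD, n = 2), 79.7% of the control level. The log2 fold change was −0.33 (SE 0.08, 95% interval −0.49 to −0.17, edgeR adjusted p = 0.00235). Ptprb lost the call with library totals alone (−0.18, adjusted p = 0.0524).

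Foxo1 (ENSMUSG00000044167, chromosome 3, 52268337 to 52350109) had 90.2, 79.1, 89.8 and 86.2 CPM after knockdown against 71.4 and 72.1 CPM in the controls. Every GapmeR sample exceeded both controls, with GapmeR sample 2 the nearest to them. The knockdown mean was 86.3 ± 5.12 CPM (SD, n = 4) and the control mean 71.8 ± 0.492 CPM (SD, n = 2). The log2 fold change was 0.27 (SE 0.07, 95% interval 0.11 to 0.42, edgeR adjusted p = 0.00855). The call was lost when either control was left out (0.28, adjusted p = 0.0620 without control 1, and 0.30, adjusted p = 0.0537 without control 2).

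Foxo3 (ENSMUSG00000048756, chromosome 10, 42181845 to 42276695) moved the other way, with 53.1, 48.1, 57.1 and 50.7 CPM after knockdown against 60.8 and 66.1 CPM in the controls. GapmeR sample 3 came closest to control 1. The knockdown mean was 52.2 ± 3.83 CPM (SD, n = 4) and the control mean 63.4 ± 3.77 CPM (SD, n = 2). The log2 fold change was −0.28 (SE 0.08, 95% interval −0.45 to −0.11, edgeR adjusted p = 0.00862). Foxo3 lost the call without control 2 (−0.20, adjusted p = 0.199) and with library totals alone (−0.13, adjusted p = 0.170). Without control 2, the count of called genes among the 6 was 2, Angpt2 and Ptprb, and 5238 genes were called in place of 8268.

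**Figure D2:**
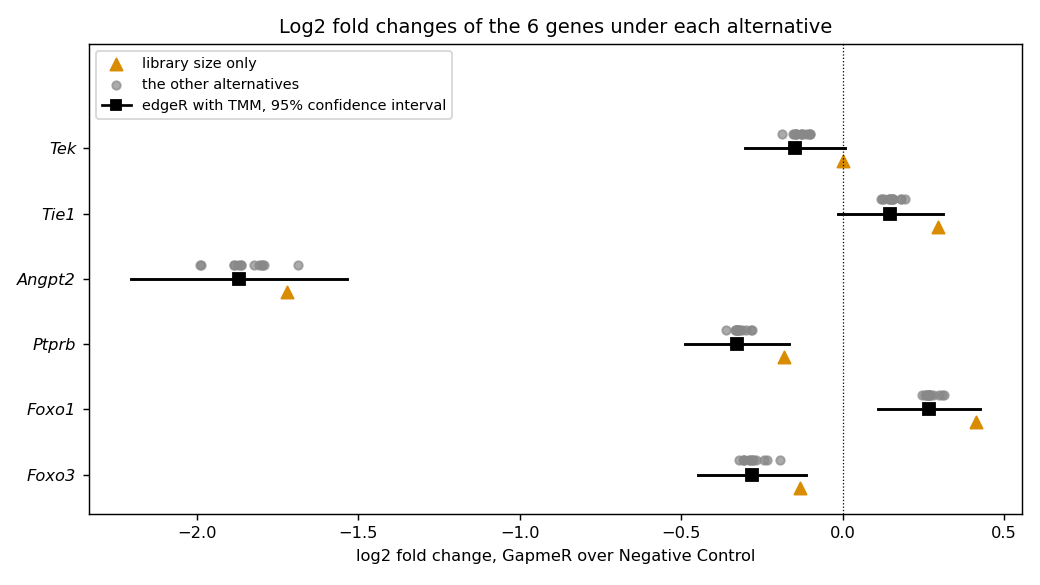
Log2 fold change of GapmeR over Negative Control for the 6 genes by edgeR with TMM factors (squares, 95% confidence intervals), with library totals alone (triangles) and under the other alternatives (grey points). Angpt2 lies between −1.99 and −1.69 throughout, and the triangles sit to the right of the squares by about the median shift of 0.15.

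The starts of the FOXO genes are shown to set their base composition and motifs beside those of the receptors. FOXO factors bind GTAAACA, and FOXO genes can themselves be regulated by FOXO factors. The windows and capitals are as for the receptors. Foxo1 is at chr3:52268087-52268386 on the plus strand and Foxo3 at chr10:42276646-42276945 on the minus strand.
Foxo1: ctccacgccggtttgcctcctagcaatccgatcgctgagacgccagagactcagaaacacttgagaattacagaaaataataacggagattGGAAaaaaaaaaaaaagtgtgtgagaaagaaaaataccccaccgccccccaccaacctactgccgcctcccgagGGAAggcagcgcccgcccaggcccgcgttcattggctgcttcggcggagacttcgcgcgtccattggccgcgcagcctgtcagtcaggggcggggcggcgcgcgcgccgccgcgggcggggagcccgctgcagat
Foxo3: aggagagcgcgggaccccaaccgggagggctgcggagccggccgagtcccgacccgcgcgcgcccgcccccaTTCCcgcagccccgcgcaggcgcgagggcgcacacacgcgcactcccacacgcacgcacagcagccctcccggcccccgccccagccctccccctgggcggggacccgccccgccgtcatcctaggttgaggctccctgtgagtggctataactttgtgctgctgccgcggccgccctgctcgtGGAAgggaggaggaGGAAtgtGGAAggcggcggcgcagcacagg
Foxo1 had 31 CpG and 61.3% GC and Foxo3 had 35 CpG and 75.0% GC, where the medians over all promoters were 7 CpG and 52.7% GC. GGAA or TTCC occurred 2 times in Foxo1 and 4 times in Foxo3. GTAAACA, read on both strands, was in none of these 4 windows and in 3.65% of all promoters. Of the 6 genes, 4 had an entry in the promoter table, and Angpt2 and Ptprb had none.

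Levels between genes were compared per length, as TMM-scaled RPKM, the CPM divided by the exon length in kilobases. In the controls the order was Tie1 at 123 ± 1.81 RPKM, Ptprb at 17.9 ± 0.129 RPKM, Tek at 15.5 ± 0.0105 RPKM, Angpt2 at 9.66 ± 1.42 RPKM, Foxo1 at 7.74 ± 0.0530 RPKM and Foxo3 at 6.88 ± 0.409 RPKM (SD, n = 2), and no neighbours overlapped. In the GapmeR samples Tie1 stood at 137 ± 6.84 RPKM, Ptprb at 14.3 ± 0.971 RPKM, Tek at 13.9 ± 0.820 RPKM, Foxo1 at 9.31 ± 0.553 RPKM, Foxo3 at 5.66 ± 0.415 RPKM and Angpt2 at 2.65 ± 0.509 RPKM (SD, n = 4). With the full exon length used, Angpt2 moved from the fourth place to the last, and Ptprb and Tek overlapped. The Angpt2 level per length is the least certain of these, since its exon length includes the bases shared with Mcph1. If reads of those bases were not counted, its level is understated in both groups and its places in the order could differ.

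Ratios between genes of the same sample do not depend on how libraries are scaled. The Angpt2 to Tek ratio of counts was 0.173, 0.134, 0.168 and 0.129 after knockdown against 0.447 and 0.551 in the controls, with means of 0.151 ± 0.0228 (SD, n = 4) and 0.499 ± 0.0735 (SD, n = 2) and a log2 difference of −1.73. The highest GapmeR ratio was under the lower control ratio. The Foxo1 to Foxo3 ratio was 1.70, 1.65, 1.57 and 1.70 after knockdown against 1.17 and 1.09 in the controls, a log2 difference of 0.55. The FOXO pair thus stood further apart in every GapmeR sample than in either control.

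Tie1 to Tek was 6.65 ± 0.0931 (SD, n = 2) in the controls and 8.18 ± 0.485 (SD, n = 4) after knockdown, by counts, a log2 difference of 0.30. Ptprb to Tek was 2.77 ± 0.0180 (SD, n = 2) and 2.44 ± 0.103 (SD, n = 4), a log2 difference of −0.18. Groups did not overlap in any of the 4 ratios. The two-sided exact permutation test over samples gave p = 0.0667 for each (adjusted p = 0.0667 over the 4), which is the smallest p that 4 samples against 2 can give, so none can pass 0.05 in this design.

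**Figure D3:**
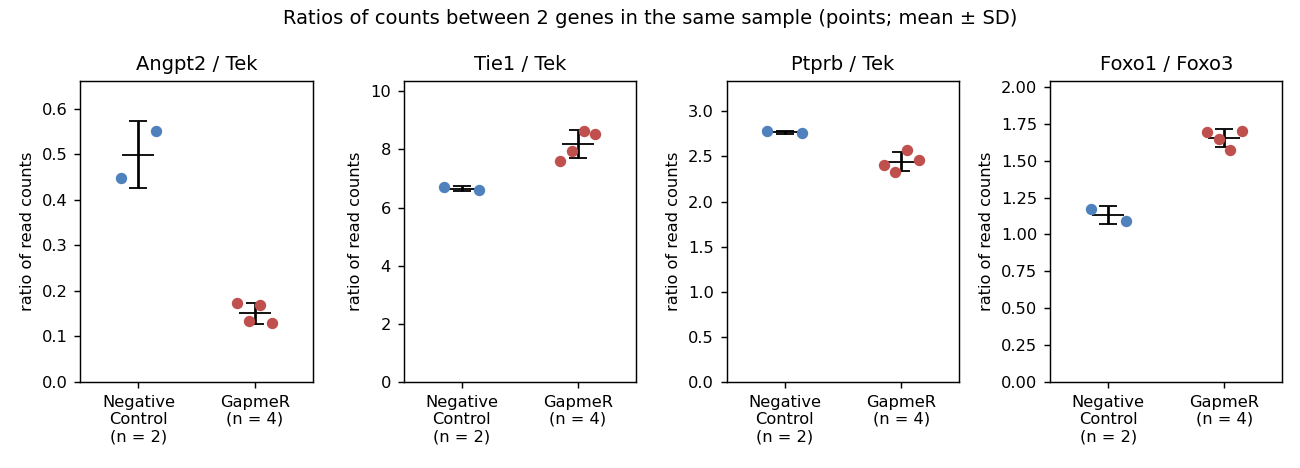
Ratio of read counts between 2 genes in the same sample (linear axes from 0; points are samples, bars the mean and SD) for Angpt2 to Tek, Tie1 to Tek, Ptprb to Tek and Foxo1 to Foxo3. Angpt2 to Tek is at 0.129 to 0.173 in the GapmeR samples and at 0.447 and 0.551 in the controls, and Foxo1 to Foxo3 is at 1.57 to 1.70 against 1.09 and 1.17.

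The other genes of the axis were counted from lists of the same pathway. Among 15 partners of the receptors and of VE-PTP (ligands, shedding enzymes, integrins that bind Angpt2, VE-cadherin and related phosphatases), 11 were tested and 7 were called (2 higher, 5 lower), 63.6% beside 45.3% of all genes tested. Their median log2 fold change was 0.02, beside 0.03 over all genes. The integrin subunit Itgb3 fell from 572 ± 45.7 to 322 ± 18.6 CPM (−0.83, SE 0.08, edgeR adjusted p = 3.3e-07). Itga5 (−0.64, adjusted p = 6.9e-06) and Itgb1 (−0.47, adjusted p = 6.8e-05), which together form the fibronectin receptor, were also lower, while Itgav was higher (0.28, adjusted p = 0.00716).

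Mmp14, a membrane protease linked to Tie2 shedding, fell by 0.72 on the log2 scale (adjusted p = 0.000152), and Adam17 was at 0.02 (adjusted p = 0.862). Cdh5, VE-cadherin and the other main substrate partner of VE-PTP, fell from 2463 ± 112 to 1733 ± 175 CPM (−0.51, SE 0.09, edgeR adjusted p = 0.000348). The other higher call was Svep1, a matrix protein reported to bind TIE1, with 6, 4, 11 and 14 counts after knockdown against 0 and 2 in the controls (adjusted p = 0.0259). It was called in 8 of 13 alternatives. Neither control reached the 5 counts of the low-count filter, so Svep1 was tested only through its GapmeR samples. A gene at its control level could be tested only if it was higher after knockdown, and the share called in this list includes it.

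Of 7 angiopoietin-like genes, which encode secreted relatives that do not bind Tie2, 4 were tested and 3 were called (beside 45.3% of all genes tested), with a median of 1.06 (0.89 with Angptl8 at its bound). Angptl4, an inhibitor of lipoprotein lipase, fell from 38.7 ± 1.15 to 17.0 ± 1.17 CPM (−1.18, SE 0.08, edgeR adjusted p = 1.2e-08). Angptl2 had 14, 14, 40 and 27 counts against 4 and 8 (1.80, adjusted p = 0.0249), and Angptl8 had 11, 10, 10 and 7 counts against 0 and 0, at least 2.75-fold higher when set against 3 counts in each control. Angptl6 was at 0.32 (adjusted p = 0.287). Angptl8 passed the low-count filter only through the GapmeR samples, and Angptl2 could not have passed on its controls alone. The count of 3 and the median rest on both, so they are not read as a result about the list. With 10 counts required in every sample, 1 angiopoietin-like gene was called.

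Weibel-Palade bodies are the granules in which endothelial cells store von Willebrand factor, P-selectin and Angpt2. Of 17 genes for their cargo and release, 15 were tested and 8 called (53.3%, against 45.3% over all genes), 2 higher and 6 lower. Their median was −0.39, and 5 were called without control 2. Selp, P-selectin, fell from 193 ± 3.02 to 56.8 ± 3.61 CPM (−1.76, SE 0.07, edgeR adjusted p = 1.5e-11), a fall close in size to that of Angpt2, and the tetraspanin Cd63 fell by 0.55 (adjusted p = 4.0e-05). Vwf, the protein that forms the granule, was low at 6.22 ± 0.912 CPM (SD, n = 4) and 5.23 ± 0.581 CPM (SD, n = 2) and was not called (0.24, adjusted p = 0.223). The exocytosis regulator Stxbp5 was lower (−0.63, adjusted p = 2.9e-06). Rab27a, a small GTPase of granule maturation, was higher (0.68, adjusted p = 0.00420), as was Rab3d (0.52, adjusted p = 0.00578).

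Of 29 genes between Tie2 and AKT, 28 were tested and 16 called (57.1%, against 45.3% over all genes), 10 higher and 6 lower, with a median of 0.05 (0.01 with Grb7 at its bound). Library totals alone gave 14 higher and 4 lower, and 9 were called without control 2. Grb7, an adaptor of receptor kinases, had 1, 5, 5 and 3 counts against 0 and 0. It passed the low-count filter only through the GapmeR samples and is among the 10 higher calls. Pik3cd, a catalytic PI3K subunit best known from leukocytes, rose from 0.681 ± 0.189 to 5.17 ± 0.289 CPM (2.90, SE 0.22, edgeR adjusted p = 2.5e-08). Phlpp2, a phosphatase that turns AKT off, was higher (0.85, adjusted p = 5.5e-05).

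Rictor, the defining subunit of the mTOR complex that phosphorylates AKT, fell from 33.7 ± 1.25 to 20.0 ± 1.70 CPM (−0.75, SE 0.09, edgeR adjusted p = 4.1e-06). Akt1, at 507 ± 44.1 CPM in the controls, was at 0.10 (adjusted p = 0.340), and Akt2 was at 0.17 (adjusted p = 0.104). Both were called with library totals alone (0.25, adjusted p = 0.0181, and 0.32, adjusted p = 0.00597).

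Among 25 further FOXO family members and regulators, 16 were called (64.0%, against 45.3% over all genes), 7 higher and 9 lower, with a median of −0.10. With library totals alone the split was 8 higher and 5 lower, so the larger side changed, and 9 were called without either control. Foxo4 fell from 15.4 ± 0.152 to 11.4 ± 0.465 CPM (−0.44, SE 0.10, edgeR adjusted p = 0.00138), on the side of Foxo3 and not of Foxo1. Foxo6 was barely expressed, with 6, 7, 6 and 2 counts against 12 and 15 (−1.54, adjusted p = 0.0174), and was called in 8 of 13 alternatives. Sfn, a 14-3-3 protein of the family that binds phosphorylated FOXO, rose from 1.82 ± 0.256 to 27.8 ± 4.96 CPM (3.91, SE 0.21, edgeR adjusted p = 2.1e-08).

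Kinases related to AKT that also phosphorylate FOXO moved in opposite directions. Sgk1 fell from 198 ± 7.21 to 132 ± 16.9 CPM (−0.59, adjusted p = 0.000178), and Sgk2 rose from 10.3 ± 1.71 to 20.3 ± 1.59 CPM (0.98, adjusted p = 4.1e-06). Mdm2, a ubiquitin ligase that acts on p53 and on FOXO proteins, was higher (0.64, adjusted p = 1.8e-05).

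Of 35 genes known as FOXO targets in one cell type or another, 31 were tested and 19 called (61.3%, against 45.3% over all genes), 8 higher and 11 lower, with a median of −0.06 beside 0.03 over all genes. Pck1, among the 8 higher calls, had no counts in either control and passed the low-count filter only through the GapmeR samples. Fasl, also among them (4.92, adjusted p = 6.0e-06), may have done so too. The share called in this list includes Pck1 and Fasl. Library totals alone gave 9 higher and 7 lower, and 11 were called without control 2. Bcl2l11, the pro-apoptotic BIM, fell from 47.7 ± 5.63 to 17.3 ± 2.04 CPM (−1.47, SE 0.10, edgeR adjusted p = 1.9e-08), and Cited2, a CBP-binding regulator, fell from 226 ± 12.5 to 116 ± 10.3 CPM (−0.96, SE 0.08, adjusted p = 1.0e-07). Ccng2, cyclin G2, was lower (−0.67, adjusted p = 1.5e-05), and the growth arrest gene Gadd45a was higher (0.66, adjusted p = 0.000105). GTAAACA was in the promoter of 6 of the 32 targets matched (Bbc3, Bcl2l11, Mxi1, Sesn1, Trim63 and Txnip), counting a gene with any matching start. Of these, Bcl2l11 and Mxi1 (−0.24, adjusted p = 0.0177) were lower and Sesn1 was higher (0.60, adjusted p = 0.00375), while Bbc3 (0.07, adjusted p = 0.582) and Txnip (0.04, adjusted p = 0.734) were not called. Mxi1 lost its call with library totals alone (−0.09, adjusted p = 0.335). The 3.65% of all promoters given for GTAAACA counts single windows, while 6 of 32 counts genes with any start. These measures are unlike and were not compared.

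**Figure D4:**
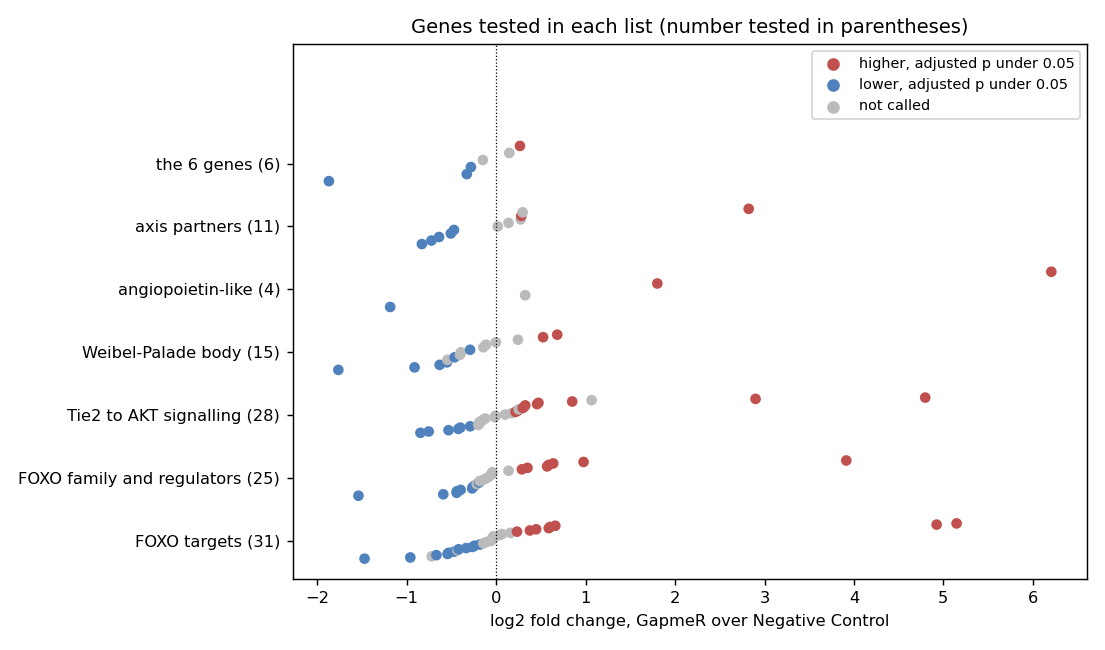
Log2 fold changes (horizontal axis) of the genes tested in each pathway list, one point per gene, coloured by the edgeR call (adjusted p under 0.05). Each list holds genes on both sides of 0, and the fitted values of Angptl8, Grb7 and Pck1, which had 0 counts in both controls, depend on the prior count and are not bounds. Angptl8, Grb7, Pck1 and Svep1 passed the low-count filter only through the GapmeR samples, and other genes with low counts in the controls may have done so too.

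The axis was read in bulk RNA, in which fewer cells of a type and less RNA per cell cannot be told apart. All 15 endothelial markers were tested and 12 called (80%), 2 higher and 10 lower, beside 45.3% of all genes tested (25.4% higher and 20.0% lower). The markers had a median of −0.39, beside 0.03 over all genes tested. Their summed level was 9064 to 10373 CPM in the GapmeR samples and 11039 to 11513 CPM in the controls. The 13 macrophage markers summed to 210 to 393 CPM against 172 to 177 CPM, with 2 called higher, and were highest in GapmeR samples 3 and 4, where Lyz2 had 5196 and 6647 counts against 2681 and 2860 in GapmeR samples 1 and 2. With GapmeR samples 1 and 2 only, an alternative chosen after seeing the data, Angpt2 was at −1.80 and 4 of the 6 genes were again called. The lowest macrophage sum of a GapmeR sample, 210 CPM, was still above both controls. This alternative therefore cannot separate these markers from the GapmeR, and their part was not tested by it.

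The 10 pericyte markers summed to 6.81 to 14.3 CPM against 3.92 to 4.60 CPM (2 called higher of 7 tested), and the 6 epithelial markers to 1.18 to 1.45 CPM against 0.475 to 0.783 CPM (2 called higher of 4 tested). The 8 astrocyte and neuron markers summed to 28.5 to 46.6 CPM against 62.4 to 63.0 CPM (6 called lower of 8 tested). The share called was 28.6% of pericyte, 50% of epithelial and 75% of astrocyte and neuron markers tested. It was 15.4% of macrophage markers, beside 45.3% of all genes tested. No marker was at 0 in every sample, and Epcam, a defining epithelial gene, had 1 count in a single sample. A count of 3 was worth 0.110 and 0.0940 CPM in controls 1 and 2, so the epithelial sums and calls rest on few counts. The part of these marker levels in the results for the axis was not tested.

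Likeness was measured as the root mean square difference of gene-centred log2 CPM over the 6 samples, among 10142 genes with a mean of at least 5 CPM. The 2 genes most like Angpt2 were Batf2 (0.0767), a leucine zipper factor, and H2-Q7 (0.0783), an MHC class I gene with near-identical relatives. For Tek they were Ambra1 (0.00917) and Vps33a (0.0235), for Tie1 Fance (0.0160) and Htt (0.0173), and for Ptprb Ctdsp2 (0.00975) and Agpat3 (0.0142). For Foxo1 they were 1700037H04Rik (0.0167) and Capn2 (0.0189), and for Foxo3 Cuta (0.0181) and Arf3 (0.0195). Within the axis the closest pairs were Tie1 with Foxo1 (0.0664) and Ptprb with Foxo3 (0.0698), and the most distant was Angpt2 with Foxo1 (1.02). All points share the same 6 libraries, so these are descriptions.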

How the data were processed

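RNA was measured in 6 bEND.3 samples, 4 GapmeR and 2 Negative Control by their labels, where the study gives n = 4 per group. A further 1 column of per-sample values was left out, since its header resembles those of the controls but matches no sample's labels, so control means rest on n = 2. The authors sequenced ribosome-depleted libraries as paired reads and aligned them to mm10 (GRCm38). Trimmomatic 0.36, STAR 2.5.2b and Subread 1.5.2 are named in the submitters' processing notes. The deposited table gives raw whole-number counts for each Ensembl gene, without normalization. Which strand setting and Ensembl release were used is not given in the sources used here.

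The members and lists were chosen with earlier results of these data known. Genes reaching 5 counts in 2 or more samples were tested with edgeR 4.0.16 in R 4.3.3 (TMM factors, robust quasi-likelihood test, Benjamini-Hochberg adjustment over 18234 genes), and adjusted p values without another tool named come from it. A call is an adjusted p under 0.05. CPM are TMM-normalized. Ratios were compared by exact permutation over samples. Exon lengths came from GENCODE vM39 (45505 of 49315 genes matched by Ensembl ID), coordinates and promoters from RefSeq on GRCm38.p6.

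From each pathway list the text names up to 4 called genes with the largest absolute log2 fold change at a mean of at least 1 CPM, the genes Angpt1, Angpt4, Foxo4, Foxo6, Akt1, Akt2 and Cdh5, and those needed to account for a count of 5 or fewer. Adam17, Cd63, Vwf, Grb7, Lyz2, Epcam and the targets holding GTAAACA were named after their values were seen. Some genes that this rule names are not reported here. Alternatives were DESeq2 size factors, library totals, DESeq2 1.42.0, limma-voom (limma 3.58.1), other filters and thresholds, a replicate block, leaving out each sample, and GapmeR samples 1 and 2 only. Chi-square per degree of freedom between replicates was 5.41 to 25.2, so none was counted as 1 sample with another.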

Additional observations from a re-analysis of the deposited data

Results flagged for a closer look

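Among 31 gene and group combinations with 4 samples, 1 had a sample far from the others. For Cdh5 in the GapmeR group, sample 2 was at 1472 CPM while the other three were at 1802 to 1830 CPM, and this gap was 0.922 of the group's range, above Dixon's 95% critical value for 4 samples. Chance gives about 1 such case in 20 groups. GapmeR sample 2 was also the lowest GapmeR sample in CPM for Tek, Tie1, Angpt2, Ptprb, Foxo1 and Foxo3. Not every gene was lowest there, and Adam17 was at its highest, 48.0 CPM. Chi-square per degree of freedom between GapmeR sample 2 and the other GapmeR samples was 18.5 to 25.2. Between the other GapmeR samples it was 5.41 to 10.7. The Cdh5 value is therefore not read as an isolated case, and its cause was not tested.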

How the results depend on the processing

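None of the 6 genes' log2 fold changes and no ratio changed sign. The balance of calls did with library totals alone, from 1 higher and 3 lower to 2 higher and 1 lower among the 6, from 7 and 9 to 8 and 5 among FOXO regulators (median −0.10 to 0.04) and from 8 and 11 to 9 and 7 among FOXO targets (median −0.06 to 0.09). The median of the axis partners, 0.02, was −0.15 with the replicate block and −0.19 with GapmeR samples 1 and 2 only. The 6 genes' log2 fold changes were computed under 14 alternatives each, and Angpt2 and Tek kept their side of the threshold in all of them. With library totals alone Tie1 was called (0.29) and Ptprb (−0.18) and Foxo3 (−0.13) were not. With 10 counts in every sample Tie1 was called (0.19), and 1 angiopoietin-like gene was called in place of 3. The causes were not tested.

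With a sample left out, Tie1 ranged from 0.13 to 0.18, Foxo1 from 0.24 to 0.31 and Foxo3 from −0.32 to −0.20, with the calls that were lost or gained given beside each gene. Genes called ranged from 5238 to 8776 over all genes, from 2 to 5 among the 6, from 5 to 9 in the Weibel-Palade body list, from 9 to 18 from Tie2 to AKT, from 9 to 18 among FOXO regulators and from 11 to 19 among FOXO targets. The lowest counts came without control 2 (for FOXO regulators, without either control). The lone control left is assumed to vary like the other group. The log2 ratio of Foxo1 to Foxo3 ranged from 0.49 to 0.60.

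With a 1.5-fold minimum, calls numbered 4628 over all genes, 1 among the 6 (Angpt2), 4 among axis partners, 4 for Weibel-Palade bodies, 5 from Tie2 to AKT, 6 among FOXO regulators and 8 among FOXO targets. At an adjusted p under 0.01, 10 FOXO regulators were called.

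Replicate numbers 1 and 2 occur in both groups. Deviations of same-numbered samples from their group mean correlated at −0.0749 and 0.138 over 10142 genes. With 2 controls, the deviations of control 1 and control 2 mirror each other, so these values cannot decide whether the numbers are pairs. The main fit did not take the numbers as pairs. A replicate block on those 4 samples called 7798 genes and 4 of the 6, with Angpt2 at −1.81, Tek −0.11, Tie1 0.12, Ptprb −0.33, Foxo1 0.26 and Foxo3 −0.31. Svep1, Angptl2 and Foxo6 lost their calls under it (adjusted p = 0.212, 0.225 and 0.0727). With 2 controls, precision rests on a spread shared between groups.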
